A study of Mus musculus with 27 samples.

Results

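The genes described are 62 isolated intergenic non-coding RNAs measured in chromatin-associated RNA of mouse bone marrow-derived macrophages (BMDMs) that received lipopolysaccharide (LPS) or the cytokine interleukin-4 (IL-4). They are the rows of the deposited expression table that are typed as ncRNA, that have no other row within 5 kb of their start or end on either strand, and whose group mean was 50 normalised read counts or more in any of the 9 groups. The members were thus chosen by the measured group means themselves, besides type and position. Neat1, Malat1 and symbols that begin with Mir were left out by the rule. The table holds 45070 rows, of which 13966 are ncRNAs; 1007 ncRNA rows reached the level at any distance from other rows, and 4130 were isolated at any level. The distance rule keeps genes whose reads no other listed gene can claim, so that their level is their own as far as the table shows.

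Long non-coding RNAs are transcripts without a recognised protein product, and many of them stay on or near the chromatin where they are made. Macrophages use LPS, a component of the outer membrane of Gram-negative bacteria, as a signal through Toll-like receptor 4 that drives an inflammatory programme through NF-kB, AP-1 and, later, interferon-responsive factors. IL-4, a cytokine of type 2 immunity, signals through STAT6 and drives a different programme. Chromatin-associated RNA is enriched in RNA still being transcribed, so that its level follows transcription more closely than that of total RNA.

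BMDMs were grown from the marrow of wild-type male C57/BL6 mice of 6 to 8 weeks, and every culture, controls included, first received the solvent DMSO for 1 h. Each of the 9 groups had 3 samples: untreated, 10 ng/ml LPS for 0.5, 1, 2 or 4 h, and 10 ng/ml IL-4 for the same 4 times. The labels do not say whether replicates came from separate animals or cultures, so that p-values measure the spread between these samples, and there was no untreated control at the later times. The normalised values summed to between 2469768 and 2790981 per sample in the untreated and IL-4 groups and to between 3571492 and 4058199 in the LPS groups, a difference of totals that bears on the directions below. Macrophage markers (8 of 8 found) summed to between 10027 and 19679 per sample, whereas the marker sums of T cells, B cells, neutrophils, fibroblasts, dendritic cells, erythroid and endothelial cells were at most 218, with Cd3e, Cd3g, Ly6g, Xcr1, Hbb-bs and Hba-a1 at 0 in every sample. The sum of the 3 endothelial markers, of which 1 reached a group mean of 10, was 5 to 6 in untreated cells and 141 to 183 at LPS 4 h, and its part in the LPS differences was not tested. In bulk samples, fewer cells of a type and less RNA per cell cannot be told apart.

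The 62 RNAs lay on 20 chromosomes, 25 on the plus and 37 on the minus strand, and spanned between 1977 and 144689 bp (median 15557). The nearest other row was between 5362 and 543504 bp away (median 18615), and 29 of the 62 had none within 20 kb. The isolation was a property of the deposited table. Of the 62, 61 had the same coordinates in RefSeq for GRCm38.p6 and Zfp33b, listed there as protein-coding, differed. In 7 cases (4921511C10Rik, 9330175E14Rik, Gm46411, Gm52797, LOC115487471, 5430437J10Rik and Gm20125) RefSeq placed another gene over the RNA or within 5 kb. GENCODE vM21 added a protein-coding gene close to 9630025h16rik and Gm49249. Counts are therefore also given for the 53 RNAs without these 9, an alternative chosen after the data were seen. GENCODE also listed other genes of any type over, or within 5 kb of, 25 of the 62, and the use of strand in counting was not given in the sources used here.

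Which values chose the RNAs limits what can be tested. Of the 62, 29 had an untreated mean of at least 50, and 33 passed the level only in stimulated groups, 25 of them only under LPS and 3 only under IL-4. An RNA that passed only through the group where it is high had to differ, so that its levels are given as a description without a test. For 35 RNAs the mean over all 27 samples was itself at least 50, and counts of these 35 are set beside all genes chosen by that same mean. In 8 of them the untreated mean was below 50 (AW112010, Gm13067, Gm17644, Gm34589, Gm34746, Gm36195, Gm43305 and Gm52290), so that stimulated samples carried them past the level. P-values of single RNAs are therefore given for the other 27 alone. Just inside the level stood Gm49249 (highest group mean 52.7 normalised read counts), Gm35658 (54.3) and Gm42252 (57.0). Just outside it stood Gm31508 (49.3), 4930512H18Rik (49.0) and Gm31258 (48.0), so that no gap separated members from non-members.

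Gm42252 showed what the lower edge holds. Its values at LPS 0.5 h were 28, 143 and 0 normalised read counts, those at LPS 1 h were 0, 1 and 43, and those in untreated cells were 0, 0 and 0. Its place rested on 1 library, and no group of it stood clear of the others.

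RefSeq gave promoter sequences (GRCm38.p6, 250 bases before to 50 after the start) for 44 of the 62 RNAs, and for 42 of these the start site was the listed start of the row. The windows of 4 RNAs on which the results below turn are shown 5′ to 3′ on the strand of the gene: AW112010 (chr19:11050517-11050816, minus strand), with the largest LPS difference of the 62; Gm30605 (chr8:80395136-80395435, minus strand), with the largest IL-4 rise; Gm34746 (chr4:117698825-117699124, plus strand), with the largest upward difference at LPS 0.5 h among the 35 RNAs with a mean of at least 50 over all samples; and AU020206 (chr7:75782071-75782370, minus strand), which moved in opposite directions under LPS and IL-4. Capitals mark matches to any of 6 motifs searched on both strands: the NF-kB motif GGAANTTCC, the AP-1 motif TGANTCA, the PU.1 motif GAGGAAG, the TATA box TATAAA, the interferon response motif GAAANNGAAA and the STAT6 motif TTCNNNNGAA, where N is any base.
AW112010: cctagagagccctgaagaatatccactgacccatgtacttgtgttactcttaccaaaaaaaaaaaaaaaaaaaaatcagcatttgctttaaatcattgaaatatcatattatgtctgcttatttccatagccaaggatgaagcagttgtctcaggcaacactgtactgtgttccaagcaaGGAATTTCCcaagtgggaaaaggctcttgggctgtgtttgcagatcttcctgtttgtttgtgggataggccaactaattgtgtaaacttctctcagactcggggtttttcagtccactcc
Gm30605: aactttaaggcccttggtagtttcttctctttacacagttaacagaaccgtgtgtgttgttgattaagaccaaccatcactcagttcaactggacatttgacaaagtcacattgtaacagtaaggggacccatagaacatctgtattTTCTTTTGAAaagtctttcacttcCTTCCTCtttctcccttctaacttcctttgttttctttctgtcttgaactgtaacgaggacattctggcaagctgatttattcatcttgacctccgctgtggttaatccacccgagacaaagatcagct
Gm34746: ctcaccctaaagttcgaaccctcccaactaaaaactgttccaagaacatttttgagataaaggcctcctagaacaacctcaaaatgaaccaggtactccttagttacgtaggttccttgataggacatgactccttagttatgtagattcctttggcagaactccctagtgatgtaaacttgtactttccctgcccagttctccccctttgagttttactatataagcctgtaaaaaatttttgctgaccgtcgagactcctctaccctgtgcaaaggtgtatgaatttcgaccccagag
AU020206: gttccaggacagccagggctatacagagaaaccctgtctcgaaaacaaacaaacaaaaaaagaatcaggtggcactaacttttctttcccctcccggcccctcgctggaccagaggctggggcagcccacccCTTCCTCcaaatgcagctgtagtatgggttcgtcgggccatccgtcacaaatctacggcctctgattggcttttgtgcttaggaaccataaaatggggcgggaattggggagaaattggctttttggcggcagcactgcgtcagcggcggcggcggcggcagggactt

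The capitals in AW112010 are an NF-kB match at -70 to -62 from the start site. Of the 44 RNAs with a promoter entry, AW112010 alone held this motif (2.27%), against 1.07% of the 27025 genes of the promoter table. In Gm30605 the capitals are a STAT6 match at -103 to -94 and a PU.1 match at -79 to -73. A STAT6 match was held by 7 of the 44 (15.9%; 8.01% of all genes) and a PU.1 match by 10 (22.7%; 15.4%). AU020206 held a PU.1 match at -118 to -112, and Gm34746 held none of the 6. An AP-1 match was held by 6 (13.6%; 8.97%), a TATA box on either strand by 8 (18.2%; 15.7%) and the interferon response motif by 3 (6.82%; 3.99%). No 2 matches of different motifs overlapped in these windows. A match is a description of letters, and was not tested as a site.

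Under LPS, 18 of the 35 RNAs with a mean of at least 50 were higher than in untreated cells at each of the 4 times, with the deposited scaling. At 0.5 h 6 of the 35 were lower, and the shares of 51.4% higher and 17.1% lower stood beside 27.1% and 34.9% of all genes with such a mean (limma on log2(value + 1), adjusted p under 0.05 over 13901 genes). An hour of LPS had 11 lower, and the genes of that level 34.7% higher and 37.4% lower. The count of lower RNAs was again 11 at 2 h (all such genes 36.3% and 38.6%) and was 10 at 4 h (34.3% and 38.3%). By the F test of the LPS course 34 of the 35 passed, a share near the 95.3% of all genes with that mean. Over all 62 the calls are a description from which nothing is read, since 25 of the 62 entered through LPS groups alone. Of the 62, 56 passed the F test (87.6% of all tested genes). At 0.5 h, 32 had a higher and 6 a lower call (19.6% and 34.4% of all genes). An hour of LPS gave 29 higher and 16 lower calls (24.8% and 39.0%), 2 h gave 32 higher with 19 lower (26.9% and 39.0%), whereas 4 h gave 31 higher with 17 lower (25.9% and 37.6%). The median change of the 35 was 0.39 at 0.5 h and 0.66 at 4 h on the log2(value + 1) scale. Genes with such a mean had medians of -0.12 and -0.07, and all tested genes had -0.24 and -0.26. Without the 9 RNAs close to another gene, 28 of 53 were higher and 5 lower at 0.5 h, and 26 and 13 at 4 h.

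The split between higher and lower depended on the scaling, since totals were larger in LPS samples. With totals set equal, 17 of the 62 were higher and 12 lower at LPS 0.5 h, against 11.7% and 52.2% of all genes. The counts became 19 and 24 at 1 h (15.5% and 55.7%), 21 against 22 at 2 h (17.0% and 57.4%), while 4 h had 23 against 20 (17.5% and 56.2%). Among the 35 RNAs with a mean of at least 50, equal totals left 6 higher and 10 lower at 0.5 h, against 15.8% and 55.8% of genes with a mean of at least 50, and 13 higher and 12 lower at 4 h, against 23.1% and 58.2%. The majority at 0.5 h thus turned with the scaling, and calls of 6 of the 35 changed sign at 1 or more LPS times, all of them under 0.7 in size on the log2 scale before. Among the 945 other ncRNA rows that reached the same level but lay closer to another row, 349 (36.9%) were higher and 169 (17.9%) lower at LPS 0.5 h with the deposited scaling, and 406 (43.0%) and 336 (35.6%) at 4 h, and whether isolated RNAs differ from these was not tested.

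**Figure D1:**
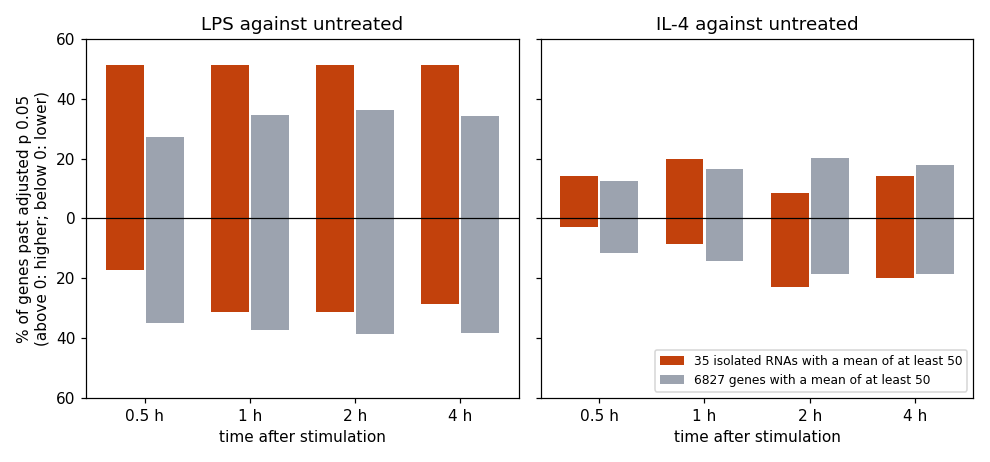
Percentage of the 35 isolated RNAs (orange) and of all 6827 tested genes (grey) with a mean of at least 50 over all samples that were higher (above 0) or lower (below 0) than untreated at each time, adjusted p under 0.05 in limma with the deposited scaling. At LPS 0.5 h, 51.4% of the isolated RNAs were higher against 27.1% of the genes, and at IL-4 2 h 8.57% against 20.1%; 8 of the 35 had an untreated mean below 50.

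AW112010, a macrophage RNA known to be induced by bacterial products, had the largest LPS difference from untreated. It lies at chr19:11047612-11050566 (mm10, minus strand), 16904 bp from Ms4a8a, the nearest protein-coding row. Its values were 2, 1 and 0 in untreated cells and 4, 1 and 1 at LPS 0.5 h. An hour of LPS brought 31, 26 and 16, 2 h brought 277, 294 and 263, while the last samples stood at 251, 217 and 246. From 1 h on no LPS sample overlapped the untreated ones, and no IL-4 sample exceeded 3. Since the untreated values lie near 0, no fold change is given.

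Gm20559 (chr6:3330738-3346141, minus strand) had its highest values later, at LPS 4 h, and rose further in absolute terms. Its values were 70, 98 and 129 in untreated cells and 130, 232 and 247 at LPS 0.5 h. They stood at 216, 405 and 338 at LPS 1 h and at 1347, 2326 and 2989 at LPS 4 h. The difference at 4 h was 4.44 ± 0.34 (SE, n = 3 per group) on the log2(value + 1) scale (adjusted p = 1.7e-08, limma). Every LPS sample lay above every untreated sample, with replicate 1 the lowest of its group at each LPS time. Under IL-4 it did not pass the test of the course (adjusted p = 0.14, limma).

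Gm34746 (chr4:117699075-117704020, plus strand, 16849 bp from Dmap1) was high from the first time on. Its values were 25, 43 and 46 in untreated cells and 843, 1305 and 862 at LPS 0.5 h, a difference of 4.70 ± 0.24 (log2, SE). At 4 h they were 974, 722 and 622, so that the level held over the whole course. Gm52290 (chr17:21473814-21480620, plus strand), 8222 bp from the zinc finger gene Zfp51, had the same shape. It went from 22, 30 and 20 to 321, 400 and 259 at LPS 0.5 h (3.71 ± 0.21) and stood at 389, 300 and 257 at 4 h. In neither RNA did an LPS sample overlap the untreated ones.

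5430437J10Rik (chr15:5496318-5594983, plus strand), 252130 bp from Ptger4, which encodes a prostaglandin E2 receptor, peaked at LPS 1 h. Its values went from 104, 166 and 132 to 676, 897 and 992 (2.67 ± 0.25, adjusted p = 2.5e-07, limma) and back to 266, 296 and 340 at 4 h. Under IL-4 it fell to 39, 27 and 23 at 4 h (-2.15 ± 0.21, adjusted p = 4.2e-06, limma). RefSeq places the pseudogene Gm20957 inside its span. Gm43305 (chr14:54292441-54297488, minus strand) peaked at LPS 0.5 h with 203, 443 and 216 against 31, 58 and 40 in untreated cells (2.66 ± 0.30). By 4 h its values of 49, 83 and 71 overlapped the untreated ones.

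Several RNAs of low overall mean showed shorter or later responses, given here as values only. 1110002J07Rik (chr10:66912190-66920384, minus strand) stood at 3, 2 and 1 in untreated cells, at 179, 194 and 144 at LPS 0.5 h, and at 3, 4 and 4 at 4 h. It also lay above the untreated samples at IL-4 0.5 h, with 12, 9 and 13. Gm30073 (chr10:87777237-87798372, minus strand), 59892 bp from the growth factor gene Igf1, went from 4, 2 and 2 to 59, 122 and 139 at LPS 1 h and to 1, 3 and 4 at 4 h. Both were back among the untreated values or close to them at 4 h. Gm35363 (chr7:101518192-101538452, minus strand) went from 7, 5 and 5 to 166, 112 and 116 at 0.5 h and then to 23, 10 and 11 at 4 h. Late responses were those of Gm52350 (0, 1 and 0 in untreated cells; 41, 75 and 74 at LPS 4 h) and Gm1720 (chrX:166662025-166689812, plus strand; 2, 2 and 1 in untreated cells; 101, 87 and 79 at LPS 4 h). Gm1720 was also above the untreated samples at LPS 0.5 h, with 30, 37 and 23 and lower between these times, with 7, 10 and 8 at 2 h.

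**Figure D2:**
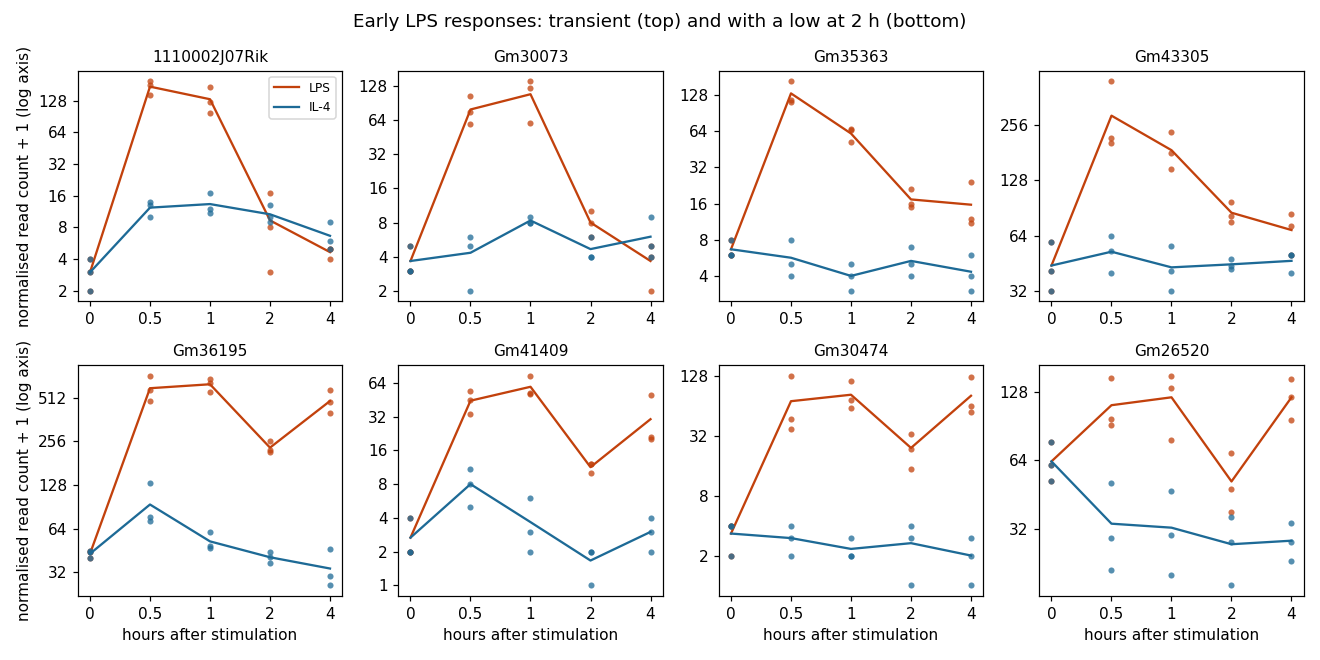
Normalised read count + 1 (log axis) of 8 isolated RNAs against hours after stimulation, with 0 for untreated; points are samples and lines group means, LPS in orange and IL-4 in blue. The upper 4 peak at 0.5 or 1 h of LPS and decline, and the lower 4 are lower at 2 h than at 1 h or 4 h; the 8 were chosen after their values were seen.

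A low at 2 h between higher values at 1 h and 4 h was found in some of the RNAs, a pattern looked for after the values were seen. In the fit of all 27 samples, 8 of the 62 were both lower at LPS 2 h than at 1 h and higher at 4 h than at 2 h, against 5.13% of all tested genes. Among the 35 RNAs with a mean of at least 50 the count was 4 (Gm36195, Gm26520, Gm34346 and Gm46162), against 7.38% of all genes with such a mean. Some of these were falls with a small late rise. In Gm34346 the group means were 16.3 at 2 h and 24.0 at 4 h, against 97.3 in untreated cells. Those of Gm46162 were 0.667 and 2.67, against 124. Gm34087 and Gm49249, of lower overall mean, stood at 5.67 and 5.33 at 4 h, against 73.0 and 33.3 in untreated cells. Gm36195 (chr16:3758779-3763856, plus strand) had values of 694, 561 and 647 at LPS 1 h, of 221, 216 and 256 at 2 h, and of 579, 400 and 478 at 4 h, against 43, 39 and 44 in untreated cells. The groups at 1 h and 2 h did not overlap, nor did those at 2 h and 4 h. Its step from 1 to 2 h was -1.45 ± 0.21 and that from 2 to 4 h 1.06 ± 0.21 (log2, SE). Gm41409 (chr16:3775742-3778357, plus strand), 11885 bp further along the same strand, had 73, 51 and 50 at 1 h, was lower at 2 h with 11, 9 and 11, then stood at 49, 19 and 20 at 4 h (values only). The pair shared its profile, with Pearson r = 0.979 over the 9 group means, a description over groups that share the untreated samples.

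Lower calls under LPS numbered 16 of the 62 at 1 h, 19 at 2 h and 17 at 4 h, against 39.0%, 39.0% and 37.6% of all tested genes. With totals set equal they numbered 24, 22 and 20, against 55.7%, 57.4% and 56.2%. Nothing is read from counts over the 62, since 25 of them entered through LPS groups alone. Among the 35 RNAs with a mean of at least 50, lower calls numbered 11, 11 and 10. Genes with such a mean had 37.4%, 38.6% and 38.3%. Equal totals gave 16, 14 and 12 of the 35, against 55.8%, 58.0% and 58.2%. Of the 62, 21 passed the F test with their largest difference downwards. That difference was at 0.5 h in 2, at 1 h in 4, at 2 h in 9 and at 4 h in 6. In the 7597 of all tested genes with such a fall the numbers were 2101, 1908, 1717 and 1871 in the same order. Gm46162 (chr1:151241601-151251324, minus strand) had 140, 110 and 121 in untreated cells and 0, 1 and 1 at LPS 2 h (adjusted p = 2.4e-10, limma), and 2, 2 and 4 at 4 h. Gm32098 (chr8:26663301-26698634, minus strand), 278701 bp from Zfp703, went from 197, 180 and 159 to 14, 17 and 11 at 2 h and to 3, 9 and 7 at 4 h (-4.71 ± 0.28, adjusted p = 7.2e-10, limma). At LPS 0.5 h its values of 204, 161 and 160 still overlapped the untreated ones. Gm5086 (chr13:97560000-97583994, plus strand) behaved alike in time: 346, 283 and 294 in untreated cells, 383, 376 and 295 at 0.5 h, and 20, 12 and 13 at 4 h (-4.30 ± 0.22, adjusted p = 1.2e-10, limma). Gm34087, 18615 bp away on the opposite strand, went from 90, 69 and 60 to 3, 1 and 3 at LPS 2 h, and the pair had r = 0.905 over the 9 group means. Gm13373 (chr2:28314940-28404698, minus strand) went from 45, 51 and 63 to 0, 5 and 3 at LPS 2 h, and Gm49249 (chr15:8511229-8532789, plus strand) from 24, 33 and 43 to 1, 1 and 2, both given as values only.

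Other falls were early and partly regained. Oip5os1 (chr2:119594296-119600746, plus strand), known as Cyrano, a conserved RNA that directs the destruction of the microRNA miR-7, had 66, 56 and 67 in untreated cells, 15, 15 and 21 at LPS 0.5 h and 39, 60 and 77 at 4 h. Its difference was -1.84 ± 0.26 at 0.5 h (adjusted p = 2.6e-05, limma) and -0.15 ± 0.26 at 4 h (adjusted p = 0.63). BC002059 (chr17:16951536-16974157, plus strand) fell from 70, 83 and 78 to 14, 23 and 29 at 1 h (-1.82 ± 0.28, adjusted p = 3.8e-05, limma) and was at 78, 89 and 83 at 4 h. In both, all samples at the low point lay below all untreated ones, and the groups overlapped at 4 h. Kantr (chrX:152294824-152327493, minus strand), a non-coding RNA next to Tspyl2, fell from 150, 212 and 178 to 16, 28 and 23 at 1 h (-2.98 ± 0.34, adjusted p = 2.2e-06, limma) and remained at 28, 56 and 56 at 4 h.

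**Figure D3:**
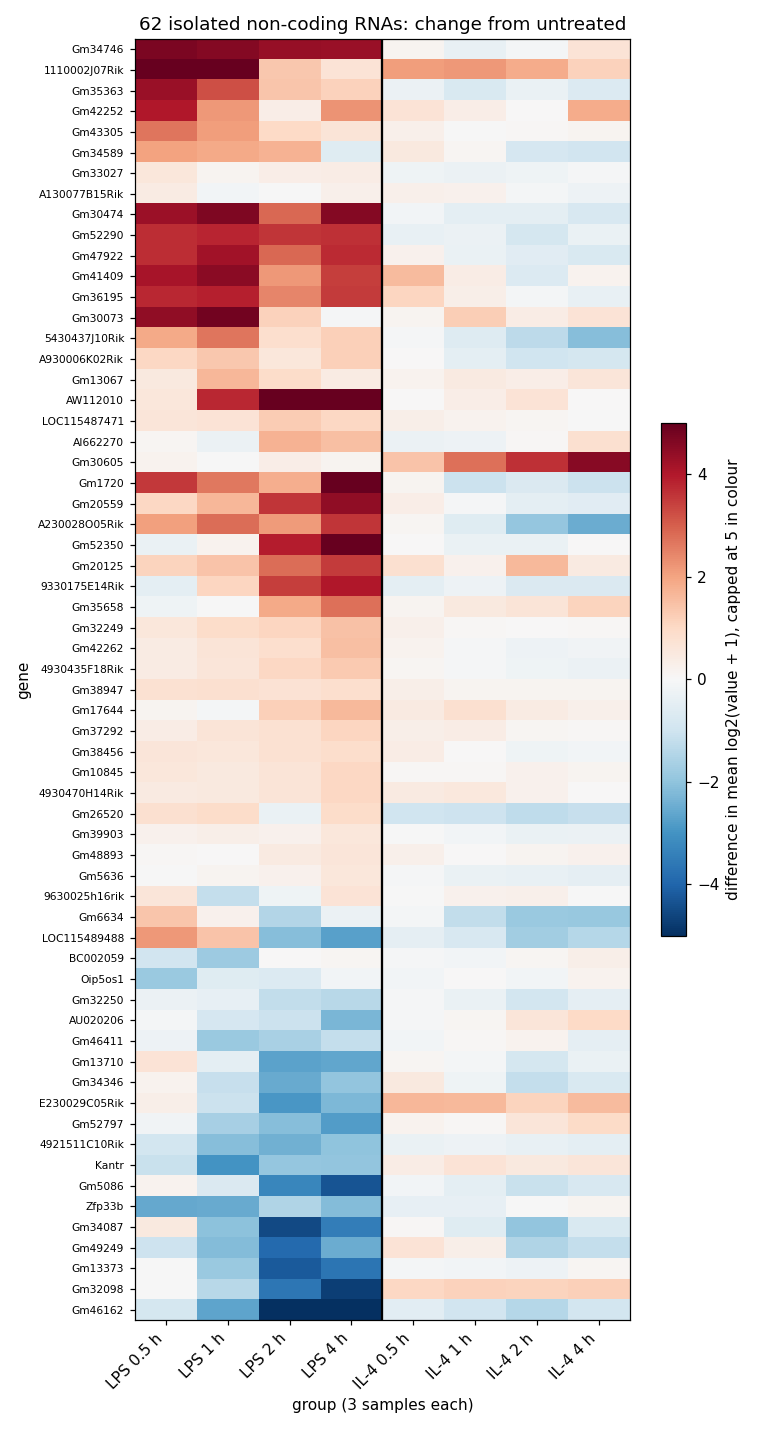
Difference in mean log2(value + 1) from untreated for the 62 isolated RNAs (rows; first those whose largest LPS difference is a rise, by its time, then those with a fall) in the 8 stimulated groups (columns, 3 samples each), red for higher and blue for lower. The strongest colours are in the LPS columns, and Gm30605 is the row that is dark red under IL-4 and near 0 under LPS.

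Fewer of the RNAs passed the test under IL-4 than under LPS, as did fewer of all genes. By the F test of the IL-4 course 15 of the 35 RNAs with a mean of at least 50 passed, against 55.7% of genes with such a mean, and 26 of the 62, against 40.3% of all tested genes. Calls over the 62 are again a description, since 33 of them passed the level only in stimulated groups. Of the 62 at 0.5 h, 8 were higher and 1 lower than untreated, against 8.15% and 8.14% of all genes. The next times had 9 higher and 3 lower (1 h; 11.1% and 9.83%), 7 higher and 13 lower (2 h; 14.3% and 13.2%), then 10 higher and 11 lower (4 h; 13.4% and 12.5%). With totals set equal, they became 6 and 4 at 0.5 h (6.73% and 14.7%) and 7 and 4 at 1 h (9.08% and 13.9%). The count of 26 depended on single replicates: it was 10 without replicate 3, 13 without replicate 2 and 33 without replicate 1, and the calls named next are those that did not rest on either.

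Gm30605 (chr8:80313073-80395185, minus strand) was the RNA with the largest IL-4 rise. Its values were 51, 62 and 42 in untreated cells, then 118, 170 and 136 after 0.5 h of IL-4. They climbed through 321, 362 and 365 (1 h) to 487, 706 and 795 (2 h), finally reaching 985, 1226 and 1441 (4 h). No sample of any of these groups overlapped the untreated ones, and the difference at 4 h was 4.53 ± 0.20 (log2, SE; adjusted p = 3.4e-09, limma). Under LPS it stayed between 41 and 85 in all 12 samples, and the LPS course did not pass the test (adjusted p = 0.7, limma).

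Gm32098 rose with IL-4 at every time, to 350, 387 and 360 at 0.5 h (1.03 ± 0.08, adjusted p = 1.8e-06, limma) and 435, 380 and 403 at 4 h. AU020206 (chr7:75769038-75782120, minus strand), 14428 bp from the kinase anchor gene Akap13, had 232, 293 and 289 in untreated cells and 455, 578 and 619 at IL-4 4 h (1.01 ± 0.13, adjusted p = 4.8e-05, limma). It fell under LPS to 42, 58 and 67 at 4 h (-2.28 ± 0.22, adjusted p = 1.8e-07, limma). In both RNAs the samples at IL-4 4 h lay above, and those at LPS 4 h below, every untreated sample. E230029C05Rik (chr7:90029159-90049071, plus strand) had the same signs in its values, at 24, 27 and 24 in untreated cells, 82, 80 and 82 at IL-4 0.5 h, and 1, 3 and 4 at LPS 2 h.

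Gm46162, Gm5086 and Gm34346 were lower at IL-4 2 h than in untreated cells. At 2 h all 3 were lower in LPS than in IL-4 (adjusted p of the direct comparison 1.2e-06 or below, limma). Gm46162 was at 54, 44 and 39 at IL-4 2 h (-1.42 ± 0.13, adjusted p = 2.7e-06, limma) and Gm5086 at 138, 143 and 141 (-1.12 ± 0.08, adjusted p = 1.9e-07, limma), in each case below all untreated samples. Gm34346 (chr10:98833533-98882737, minus strand) was at 33, 51 and 45 at IL-4 2 h against 89, 112 and 91 in untreated cells (-1.17 ± 0.17, adjusted p = 0.00015, limma), and at 15, 20 and 14 at LPS 2 h. Before that, at IL-4 0.5 h, Gm34346 had stood above every untreated sample, with 132, 154 and 129. Each of the 3 was lower at IL-4 2 h than at IL-4 4 h in group mean. A230028O05Rik (chr16:25059639-25069058, plus strand) went the other way in LPS, with 5, 13 and 7 in untreated cells, 3, 0 and 0 at IL-4 4 h and 94, 104 and 114 at LPS 4 h. A230028O05Rik, Gm6634 (31, 24 and 33 in untreated cells; 21, 4 and 4 at IL-4 4 h), Gm20125 (10, 7 and 10; 17, 35 and 44 at IL-4 2 h) and Gm41409 (1, 1 and 3; 10, 4 and 7 at IL-4 0.5 h) are given as values only, and their IL-4 calls were lost without replicate 2 or without replicate 3.

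**Figure D4:**
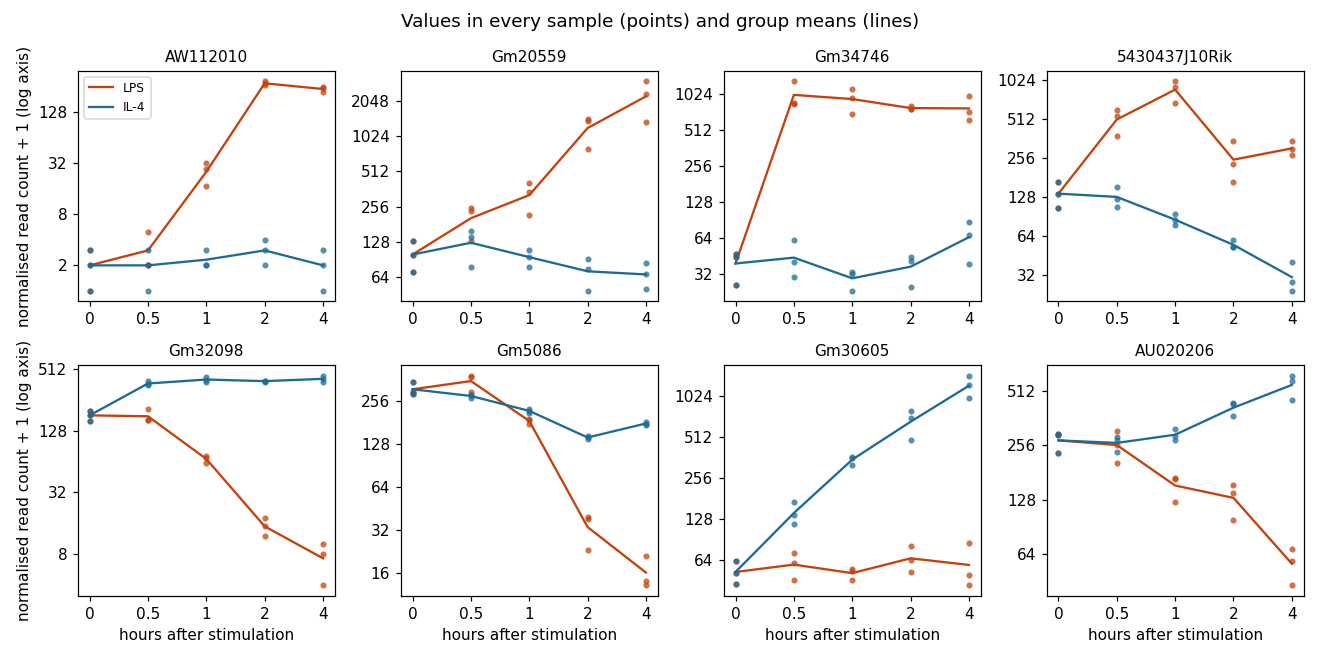
Normalised read count + 1 (log axis) of 8 isolated RNAs in each sample (points) with group means (lines), LPS in orange and IL-4 in blue, against hours after stimulation, with 0 for untreated. The 2 courses part in opposite directions in AU020206 and Gm32098, and Gm30605 rises only along the IL-4 line, from 51, 62 and 42 to 985, 1226 and 1441.

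The stimuli were compared directly at each time in 1 fit of all 27 samples, which does not pass through the shared untreated samples. Counts over all 62 are a description from which nothing is read. Of these RNAs, 25 entered through LPS groups alone and 3 through IL-4 groups alone. At 0.5 h, 23 of the 62 were higher in LPS than in IL-4 and 9 lower, against 18.0% and 35.8% of all tested genes. The next times had 32 higher and 19 lower (1 h; 24.0% and 40.5%), 34 higher and 18 lower (2 h; 26.4% and 42.3%), then 36 higher and 18 lower (4 h; 26.1% and 41.9%). Among the 35 RNAs with a mean of at least 50, 12 exceeded their IL-4 level and 7 fell short of it at 0.5 h, against 24.9% and 36.6% of genes with such a mean. These counts were 17 against 14 (1 h; 33.4% and 39.8%), 19 against 12 (2 h; 35.1% and 42.0%), finally 19 against 11 (4 h; 34.4% and 41.5%). With totals set equal these became 7 and 15 at 0.5 h, against 16.2% and 54.0% of genes with a mean of at least 50. Later times had 11 against 17 (1 h; 22.4% and 55.7%), 11 against 15 (2 h; 23.6% and 60.4%), finally 14 against 14 (4 h; 23.5% and 61.0%). The majority thus turned with the scaling at the first 3 times. The largest differences among the 35 towards IL-4 were those of Gm32098 at 4 h (-5.89 ± 0.21 as LPS minus IL-4, log2, SE; adjusted p = 2.9e-17, limma), Gm46162 at 2 h (-4.87 ± 0.26, adjusted p = 4.9e-14) and Gm30605 at 4 h (-4.41 ± 0.24, adjusted p = 6.2e-14). Towards LPS, AW112010 came first, with 251, 217 and 246 against 0, 2 and 1 at 4 h, and Gm20559 differed by 4.99 ± 0.34 at 4 h (adjusted p = 5.3e-12).

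Levels were uneven among the RNAs. Gm37292 (chr7:31207088-31228454, plus strand) alone made up 21.3% of the summed values of the 62, and the 4 highest RNAs 43.7%. Per kb of listed width, the mean over all samples was 83.4 normalised read counts for Gm37292, 82.9 for Gm34746, 48.2 for Gm36195, 31.7 for Gm20559 and 31.5 for Gm46411, which lies opposite to the body of Rreb1 in RefSeq. Gm37292 rose modestly over the LPS course, from 1378, 1327 and 1211 to 2807, 2677 and 2810 at 4 h (1.08 ± 0.12, adjusted p = 8e-07, limma). At LPS 0.5 h its difference of 0.36 turned to -0.15 with totals set equal. 4930470H14Rik (chr17:4044658-4082995, minus strand), the next highest in mean over all samples, went from 725, 729 and 655 to 1823, 1289 and 1249 at LPS 4 h (1.03 ± 0.16, adjusted p = 4.9e-05, limma). Its earlier differences, of 0.46 at 0.5 h, turned to -0.05 with totals set equal. The summed level of the 62 was 5857 ± 111 (SD, n = 3) in untreated cells, 12348 ± 529 at LPS 4 h and 7214 ± 219 at IL-4 4 h. As a share of all values it was 0.231% ± 0.0076, 0.319% ± 0.018 and 0.287% ± 0.0063 in the same order. The sum is over RNAs chosen for these values.

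RNAs that passed neither course test numbered 5, or 8.06% of the isolated RNAs, against 10.5% of all tested genes. None of these 5 was among the 35 with a mean of at least 50. Of all genes with such a mean, 3.75% passed neither test. The highest of the 5 RNAs were Gm39903, Gm33027 and A930006K02Rik. A930006K02Rik (chr16:91465104-91470123, plus strand), 15091 bp from the interferon receptor gene Ifnar1, had 34, 102 and 102 at LPS 1 h against 22, 30 and 30 in untreated cells, with replicate 1 low in every LPS group.

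Positions next to protein-coding genes were set beside the profiles. Over the 9 group means (log2 scale), the Pearson correlation of an RNA with its nearest tested protein-coding gene had a median of 0.636 in the 62 and exceeded 0.8 in 20 of them. The same value for 11188 tested protein-coding genes and their own nearest tested neighbours had a median of 0.491, and 0.31 for the 5631 of these at least 5 kb apart, with 25.6% and 16.6% over 0.8. The groups share samples and the untreated level, so that these are descriptions without a test. The 62 were also chosen by their group means, and the protein-coding genes were not chosen by that level. Among the 20 were 9330175E14Rik with Nlrc5 (r = 0.942) and Gm46411 with Rreb1 (r = 0.918), where RefSeq places the neighbour over the RNA. Whether reads were shared there was not tested. Among the 45 RNAs whose nearest protein-coding row was tested, 16 lay downstream of that gene on the same strand, with a median of 0.786, and 29 lay otherwise, with 0.664. Gm20559 followed Samd9l, an interferon-inducible gene 26115 bp away, whose group means went from 145 in untreated cells to 1854 at LPS 2 h and 1688 at 4 h (r = 0.966). Gm36195 lay 7990 bp downstream of Zfp263 on the same strand, which went from 257 to 1828 at LPS 0.5 h (r = 0.961) but was at 1754 at 2 h, where Gm36195 had its low. Gm30605 had as its nearest tested gene Hhip, which encodes an antagonist of hedgehog signalling, 255064 bp away and listed at 0 in untreated cells and at a mean of 52.0 at IL-4 4 h (r = 0.953). Gm34746 had no such likeness to Dmap1, which went from 26.7 in untreated cells to 10.0 at LPS 0.5 h (r = -0.596), and 4921511C10Rik had r = -0.942 with Rapgef2, over whose body it lies in RefSeq. Nearest protein-coding rows of other RNAs named were Reep3 (1110002J07Rik), Lipg (Gm52350), Egfl6 (Gm1720), 3110040M04Rik (Gm46162), Enc1 (Gm5086), Arhgef28 (Gm34087), Ppp1r26 (Gm13373), LOC102634078 (Gm49249), Eed (E230029C05Rik), Cited2 (Gm20125), Lpp (A230028O05Rik) and Otol1 (Gm6634). Whether transcription runs on from a neighbour into any of these RNAs was not tested.

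**Figure D5:**
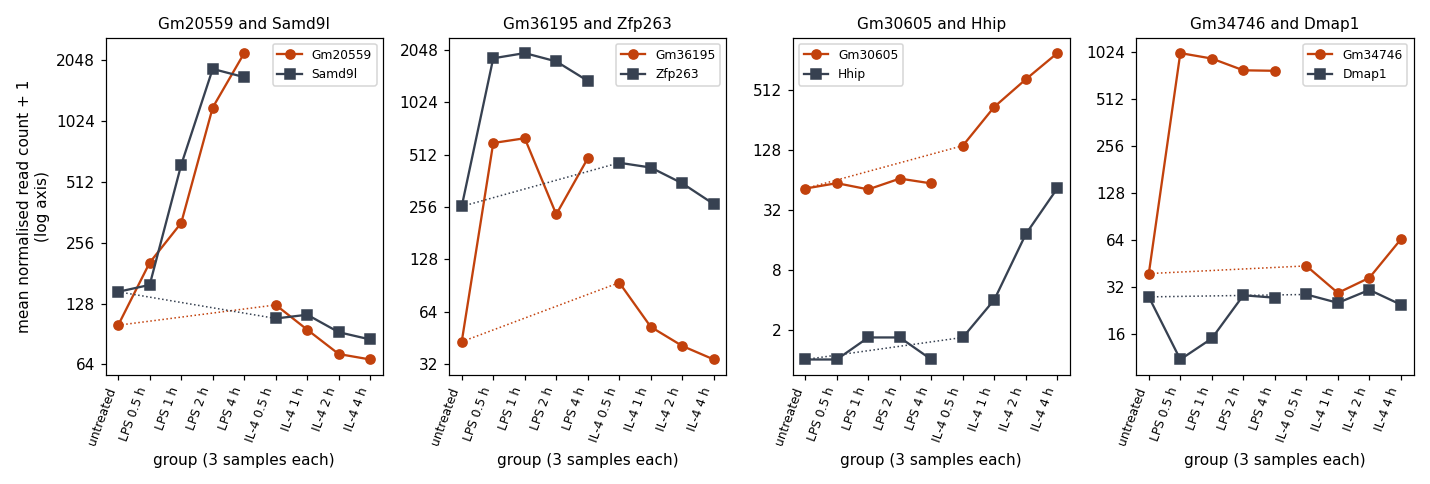
Mean normalised read count + 1 (log axis) in the 9 groups for 4 isolated RNAs (orange circles) and their nearest tested protein-coding gene (dark squares); solid lines join times of 1 stimulus and dotted lines join untreated to IL-4 0.5 h. Gm20559 and Samd9l, and Gm30605 and Hhip, have like shapes, Zfp263 lacks the 2 h low of Gm36195, and Dmap1 does not follow Gm34746; the 4 pairs were chosen after their values were seen.

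Of the other non-coding RNAs, a list of 56 known names gives the frame. It holds Oip5os1 also as Cyrano, and C130026I21Rik, which the deposited table types as protein-coding and which was not tested. The table held 53 of the 56 names, 36 were tested and 2 (Oip5os1 and AU020206) were among the 62. Over the LPS course 28 of the 36 changed, against 87.6% of all tested genes, their largest difference being upwards in 14 and downwards in 14. Over the IL-4 course 11 changed, against 40.3%, 5 upwards and 6 downwards. The names were chosen with earlier results of these data known.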

How the data were processed

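RNA bound to chromatin was sequenced from SMART-seq2 libraries made with random primers, by a kit that does not keep strand. According to the methods and the submitters' processing notes, the authors aligned reads to mm10 with TopHat2 2.1.1, removed reads with several hits and in blacklisted regions (bedtools 2.29.2), counted reads per RefSeq gene in R, and scaled the counts on invariant genes. R 3.6.2 is listed in the notes. The deposited values are a score: normalised read counts that the authors rounded to whole numbers. Whether exons or whole genes were counted, and with which strand, was not given in the sources used here. No raw counts were used here, so counting intervals were not computed and depth per sample is unknown beyond the totals of the normalised values.

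Genes with at least 10 in at least 3 of 27 samples (13901) entered limma 3.58.1 (under R 4.3.3) as log2(value + 1), with a trended variance. Untreated and LPS samples formed 1 fit, untreated and IL-4 samples another, and LPS against IL-4 and steps between times came from all 27. P-values were adjusted by Benjamini-Hochberg over all tested genes, with a threshold of 0.05. The fold scale understates changes of low genes. The genes named were, for each stimulus, the 6 largest rises and the 6 largest falls without overlap of replicates; the 3 largest LPS to IL-4 differences each way; the 5 highest per kb; known RNAs; the 3 just inside and outside the level; the 3 highest past neither test; and the nearest protein-coding rows of the first of these. Others (Gm52290, Gm43305, BC002059, Kantr and further RNAs) were chosen after their values were seen. The members and lists were chosen with earlier results of these data known. Alternatives were pseudocounts of 8 and 0.5, filters, 2 rescalings, leaving out replicates, a replicate block and 20 kb isolation; leaving out RNAs close to another gene was added after seeing the data.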

Additional observations from a re-analysis of the deposited data

Results flagged for a closer look

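In 5 of the 62 RNAs the step from 0.5 h to 4 h passed the test in opposite directions under LPS and IL-4, and the difference of the steps passed it too (limma, fit of all 27 samples; 8.06% of the 62 and 5.79% of all tested genes). This look at steps was chosen after seeing the data. Some of the 5 owe their membership to their highest groups, as given below, so that nothing is read from the count or its share. The difference, LPS step minus IL-4 step on the log2(value + 1) scale, was -3.24 ± 0.26 (SE) in AU020206 (adjusted p = 2.9e-10), with steps of -2.19 under LPS and 1.06 under IL-4. In 4930470H14Rik it was 1.01 ± 0.22 (adjusted p = 0.00048), with steps of 0.57 and -0.44.

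The other 3 owe their membership to their highest groups, and their differences are given as values. They were -3.45 in Gm52797, which lies opposite to the body of Fry in RefSeq, 2.75 in Gm1720 and 4.09 in A230028O05Rik. The calls under IL-4 were less firm: 4930470H14Rik, A230028O05Rik and Gm52797 lost the call of the IL-4 course without replicate 2 and without replicate 3. 4930470H14Rik also lost it with totals set equal, and its IL-4 step had an adjusted p of 0.048 (limma).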

How the results depend on the processing

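The numbers of RNAs that passed the test depended on the membership and, under IL-4, on single replicates. With a filter of a mean of at least 50 over all samples, 34 passed over the LPS course, 17 over the IL-4 course, 25, 30 and 28 at LPS 0.5, 2 and 4 h, 12 at IL-4 2 h and 12 at IL-4 4 h, and 19, 31, 31 and 30 between LPS and IL-4 at the 4 times. With membership by that mean the numbers were 34 and 15 over the courses, 24, 29, 29 and 28 at the LPS times, 11 and 12 at IL-4 2 h and 4 h, and 19, 31, 31 and 30 between stimuli. With 20 kb isolation they were 26 and 12, then 17, 21, 24 and 23 under LPS, 5, 6, 10 and 9 under IL-4, and 12, 22, 22 and 25 between stimuli. These 3 settings have fewer RNAs by construction.

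Leaving out 1 replicate gave 10 to 33 over the IL-4 course (26 with all), 21 to 40 at LPS 0.5 h (38), and 4 to 12, 7 to 16, 10 to 22 and 8 to 29 at the IL-4 times. The low ends came without replicate 2 or 3. Averaging these replicates gave 11 over the IL-4 course, 24 at LPS 0.5 h, and 4, 7, 10 and 9 at the IL-4 times. The cause was not tested. Deviations from the group means were correlated between same-numbered samples of different groups, with a median of 0.308 (lowest 0.09). Samples of other numbers had a median of -0.309, with a range of -0.583 to 0.39. Deviations cancel within each group, so that this median is tied to that of same-numbered samples and is no separate contrast. The correlation was over 0.1 in 106 of 108 same-numbered pairs, not in all, and the main fits used no pairing. They may thus leave out a structure that the replicates share. With the replicate block, 40 passed over the IL-4 course and 15 at IL-4 0.5 h, and no call over either course was lost. With totals set equal, Gm39903 at LPS 4 h turned from 0.57 to -0.03. Equal totals moved the median of all genes at the LPS times to between -0.73 and -0.91. Without the 9 RNAs close to another gene every count stayed within 1.5 times. Depth was not given, so small differences in low RNAs cannot be judged against counting error.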
